A study of Homo sapiens with 16 samples.

Results

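The genes described here are 47 protein-coding genes of the Wnt pathway, which were the 19 Wnt ligands, the 10 Frizzled receptors, the co-receptors LRP5 and LRP6, the R-spondin receptors LGR4, LGR5 and LGR6, the β-catenin destruction complex genes AXIN1, AXIN2 and APC with CTNNB1 itself, the 4 TCF/LEF factors, and the feedback or antagonist genes RNF43, ZNRF3, NKD1, DKK1 and DKK4. They were chosen by gene symbol out of 20033 protein-coding genes. For each gene, p65 ChIP-Seq signal was read in the 200-bp bin with the highest mean over 12 ChIP tracks, in the stretch from 50 kb upstream to 2 kb downstream of the transcription start site (TSS). The data came from HT29 and SW480, both human colorectal adenocarcinoma lines. Each line had been engineered to express estrogen receptor beta (ERβ, encoded by ESR2) or carried an empty vector (mock), which gave 4 groups of 3 ChIP libraries and 1 input library each (HT29 mock, HT29 ERβ, SW480 mock and SW480 ERβ). Cells of all 4 groups were treated with TNFα (30 ng/ml) for 30 min before double cross-linking and p65 immunoprecipitation, and no untreated cells and no added estrogen ligand were part of the groups used. Each group was 1 engineered cell population, so that a difference tied to ERβ and one tied to the population cannot be told apart.

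Wnt ligands bind Frizzled receptors together with LRP5 or LRP6, which halts the APC and AXIN complex that otherwise marks β-catenin for destruction. β-catenin then enters the nucleus and activates genes with TCF/LEF factors, and among those targets are AXIN2, RNF43, ZNRF3, NKD1, LGR5 and DKK1, most of which dampen the pathway again. The intestinal epithelium renews itself through this pathway, and most colorectal cancers, HT29 and SW480 cells among them, carry a truncated APC. TNFα releases p65 (RELA), the main activating subunit of NFκB, to the nucleus, where it binds κB sites. ChIP signal reports where p65 sat, and says nothing on whether the nearby gene was transcribed.

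The values are tag densities per base, which the authors had brought to a common total of 10 M tags for every library. As a check of the labels, the ratio of signal over coding exons to signal over introns of ESR2 was 4.09 to 7.20 in the HT29 ERβ libraries against 1.08 to 1.35 in HT29 mock, and 2.38 to 3.02 in SW480 ERβ against 1.28 to 1.58 in SW480 mock. A set of 12 known p65 target genes, NFKBIA and TNFAIP3 among them, was enriched in all 4 groups, with median densities of 10.1 to 14.8. Replicate 1 stood apart in HT29, with the highest library median over all gene bins in both HT29 groups (0.96 and 0.88 on the log2 scale, against 0.69 to 0.76 in the other 4 HT29 libraries). The 3 SW480 ERβ libraries had medians of 1.01 to 1.21 and the SW480 mock libraries 0.87 to 0.92, so that signal was higher in SW480 ERβ over gene bins in general. Input signal moved the other way, with a median over all genes of 0.46 in SW480 ERβ and 0.678 in SW480 mock. The part of these shifts in the results was not tested. The upstream stretch of WNT3 and WNT9B on chromosome 17 held no signal in any of the 16 tracks, inputs included, as was so for 592 genes in all, so these 2 genes were not measured and 45 of the 47 remained.

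The positions and sequences of the bins show what lay under the signal. A bin was enriched in a library if its density reached 2 and at least 4 times both the input and the surrounding 10 kb. It was enriched in a group when this held in at least 2 of 3 libraries. The input was that of the same line and ERβ status, which for ERβ cells came from another series according to the paper. Of the 15 enriched genes, 7 held a match to the κB consensus in their bin. The bins of 6 of them are printed below in full, plus strand of GRCh38, with κB matches in capitals, because κB sites are the sequences that p65 is known to bind. The FZD5 bin overlapped the 5′ end of the transcript, so its match is given with its flanks alone.
WNT1: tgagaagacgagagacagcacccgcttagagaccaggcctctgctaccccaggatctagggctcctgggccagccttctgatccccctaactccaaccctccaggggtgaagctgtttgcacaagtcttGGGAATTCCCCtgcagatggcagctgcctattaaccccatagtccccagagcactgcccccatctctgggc
WNT10A: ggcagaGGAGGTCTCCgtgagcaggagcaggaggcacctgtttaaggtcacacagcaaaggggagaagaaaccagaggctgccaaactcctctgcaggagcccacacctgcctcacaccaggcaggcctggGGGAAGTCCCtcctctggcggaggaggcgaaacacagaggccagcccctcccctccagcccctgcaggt
WNT10B: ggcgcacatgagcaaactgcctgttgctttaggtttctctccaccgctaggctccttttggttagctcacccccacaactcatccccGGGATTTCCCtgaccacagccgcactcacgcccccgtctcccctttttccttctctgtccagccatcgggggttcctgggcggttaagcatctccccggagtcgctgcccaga
FZD10: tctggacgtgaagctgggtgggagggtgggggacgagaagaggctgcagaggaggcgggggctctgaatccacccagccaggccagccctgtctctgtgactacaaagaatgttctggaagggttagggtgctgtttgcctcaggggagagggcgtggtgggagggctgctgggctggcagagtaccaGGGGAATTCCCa
LGR6: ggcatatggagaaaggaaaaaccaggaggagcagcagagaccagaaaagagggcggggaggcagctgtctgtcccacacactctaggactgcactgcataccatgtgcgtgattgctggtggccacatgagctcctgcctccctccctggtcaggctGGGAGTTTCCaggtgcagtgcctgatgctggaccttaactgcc
AXIN1: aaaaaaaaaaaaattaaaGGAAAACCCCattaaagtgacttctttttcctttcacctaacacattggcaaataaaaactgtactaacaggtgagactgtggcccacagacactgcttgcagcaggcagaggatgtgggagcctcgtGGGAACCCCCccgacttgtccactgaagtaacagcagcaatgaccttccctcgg
FZD5: aatgcccgccGGGAAGCCCCgccccggctc
These bins were WNT1 at chr12:48969201-48969400, WNT10A at chr2:218880001-218880200, WNT10B at chr12:48977801-48978000, FZD10 at chr12:130116801-130117000, LGR6 at chr1:202190001-202190200 and AXIN1 at chr16:383201-383400. The FZD5 match began at base 207769944 of chromosome 2. WNT1 and FZD10 both held the palindromic κB word GGGAATTCCC, and WNT10B held GGGATTTCCC. Bins of another pair of genes, LEF1 at chr4:108176201-108176400 and FZD1 at chr7:91239401-91239600, are printed because they differed with ERβ in SW480, a choice made after their values were seen. In LEF1 the capitals mark the TCF/LEF word CTTTGAT, and the FZD1 bin held no match to any of the motifs searched.
LEF1: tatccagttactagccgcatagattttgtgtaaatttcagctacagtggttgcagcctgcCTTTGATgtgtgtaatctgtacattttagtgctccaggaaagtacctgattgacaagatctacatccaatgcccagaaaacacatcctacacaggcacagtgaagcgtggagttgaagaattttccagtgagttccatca
FZD1: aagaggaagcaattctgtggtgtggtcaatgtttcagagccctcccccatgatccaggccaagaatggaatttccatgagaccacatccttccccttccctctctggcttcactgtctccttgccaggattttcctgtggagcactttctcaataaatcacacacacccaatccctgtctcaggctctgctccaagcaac

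Enriched p65 signal was found at few of these genes in 3 of the groups and at 15 of the 47 in SW480 ERβ. In HT29 mock 2 genes were enriched (WNT1 and WNT5B), where 9.6% of all protein-coding genes were. HT29 ERβ and SW480 mock had only WNT1, with 6.42% and 3.51% of all genes enriched. The 15 genes in SW480 ERβ made up 31.9% of the 47, against 18.1% of all genes. They were WNT1, WNT5B, WNT7B, WNT10A, WNT10B, FZD1, FZD5, FZD10, LGR6, AXIN1, CTNNB1, TCF7, TCF7L2, LEF1 and DKK4. At the picked bins no enriched gene of another group was missing from this list, and 20.1% of all genes were enriched in at least 1 group. The bins were picked by the mean of the 12 tracks, and signal over gene bins was highest in SW480 ERβ. These counts are therefore not independent of the pick. At LRP6 the bin next to the picked one was enriched in HT29 mock alone. With all 3 libraries required, which 9.71% of all genes met, 7 genes remained in SW480 ERβ (WNT1, WNT10A, WNT10B, FZD1, LGR6, TCF7 and LEF1). The same 7 were enriched without SW480 ERβ replicate 2 (9.83% of all genes), 9 without replicate 3 (10.1%) and 13 without replicate 1 (17.6%). In HT29 mock, WNT5B lost its call without replicate 1 or replicate 3. Inputs bear on these counts. The SW480 mock input was higher than the SW480 ERβ input in 34 of the 47 bins and 14 of the 15 enriched ones (76.3% of all genes). In HT29 the median input over all genes was instead higher with ERβ (0.522 against 0.42). With the 2 SW480 inputs exchanged, 10 genes were enriched in SW480 ERβ (13.8% of all genes) and 3 in SW480 mock (WNT1, WNT10B and LGR6; 5.95%).

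**Figure D1:**
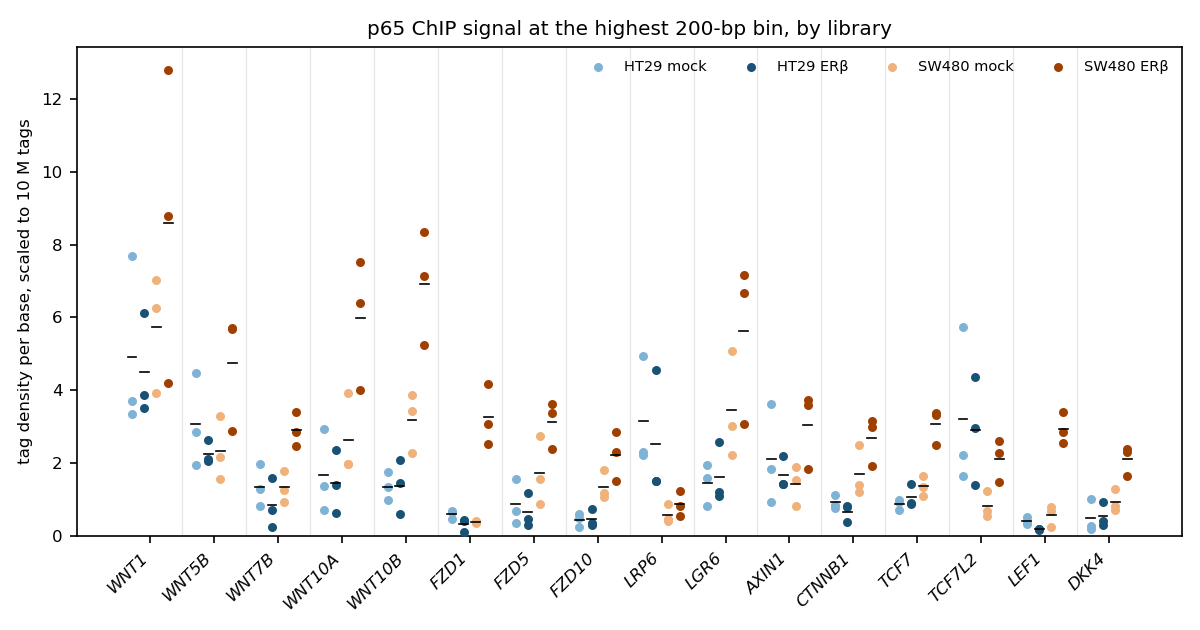
p65 ChIP signal (tag density per base, scaled to 10 M tags, linear axis from 0) at the highest 200-bp bin of the 15 enriched genes and of LRP6. Each point is 1 of 3 libraries of a group and each bar their mean. The 3 SW480 ERβ points of FZD1 (2.51 to 4.17) and LEF1 (2.55 to 3.39) sat above all points of the other groups, while those of WNT1 spread from 4.19 to 12.8.

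Many bins lay far from the gene. For 24 of the 45 measured genes the bin centre was over 10 kb from the TSS, and so it was for 8 of the 15 enriched genes. By annotation, 16 of these 45 bins overlapped a promoter (1 kb upstream to 100 bp downstream of a TSS of any gene), 13 an intron, 1 an exon, and 15 were intergenic. Enriched bins were 7 promoter, 5 intergenic, 2 intron and 1 exon bin. Several bins could belong to a neighbour. The WNT1 bin lay in an intron of WNT10B and was also the highest bin of ARF3 and FKBP11. The WNT10B bin in turn lay at -421 bp from the TSS of WNT1, so the 2 ligand genes, which sit side by side, exchanged bins. AXIN1 shared its bin with 5 other genes and the nearest coding TSS was that of PGAP6, at -1323 bp. DKK4 had its highest bin at the promoter of VDAC3, WNT5B shared its bin with FBXL14, and WNT10A with PRKAG3. LEF1 had its bin at the promoter of the antisense transcript LEF1-AS1, and a ChIP signal has no strand that could tell the genes apart.

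**Figure D2:**
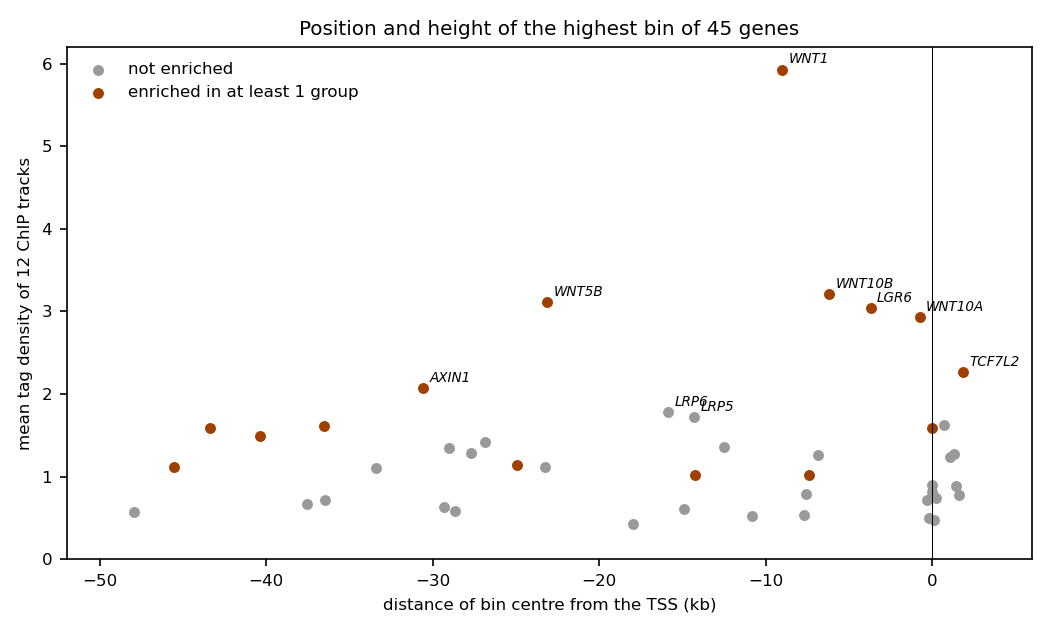
Mean p65 tag density of the 12 ChIP tracks (linear axis from 0) at the highest bin of the 45 measured genes, against the distance of the bin centre from the TSS in kb (negative is upstream). Enriched genes are coloured, and genes with a mean over 1.7 are named. WNT1 (5.93) was the highest, followed by WNT10B (3.21) and WNT5B (3.11).

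Among the Wnt ligands, 5 of 19 were enriched and their levels ranged widely. WNT1, a canonical ligand, had the highest signal of the 47 genes in every group. Its 3 libraries had 7.68, 3.70 and 3.35 in HT29 mock, 6.11, 3.86 and 3.51 in HT29 ERβ, 3.91, 6.25 and 7.02 in SW480 mock, and 4.19, 12.8 and 8.77 in SW480 ERβ. The groups overlapped, and inputs were at 0.24 to 0.825. A mean of 5.93 put the WNT1 bin at the 97.6th percentile of all genes, while the known p65 targets had medians of at least 10.1. WNT10B, also a canonical ligand, had 1.74, 1.33 and 0.992 in HT29 mock, 2.10, 0.591 and 1.46 in HT29 ERβ, 2.26, 3.86 and 3.42 in SW480 mock, and 5.23, 7.15 and 8.35 in SW480 ERβ. Here the 3 SW480 ERβ libraries lay above all SW480 mock libraries, which in turn lay above the HT29 mock libraries. Inputs at the bin were 0.29 in HT29 mock, 0.641 in HT29 ERβ, 1.16 in SW480 mock and 0.46 in SW480 ERβ. Relative to input the mock lines were in the other order, with 4.68 times input in HT29 mock and 2.74 times in SW480 mock.

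WNT10A, a further canonical ligand with a bin at -751 bp from its own TSS, had 2.95, 0.714 and 1.36 in HT29 mock, 2.35, 0.631 and 1.40 in HT29 ERβ, 1.97, 1.98 and 3.92 in SW480 mock, and 4.01, 6.39 and 7.52 in SW480 ERβ. SW480 ERβ was again above SW480 mock in all libraries, though its lowest value (4.01) came close to the highest mock value (3.92). WNT5B, a ligand best known for signaling without β-catenin, had 4.46, 1.93 and 2.85 in HT29 mock, 2.62, 2.05 and 2.10 in HT29 ERβ, 1.56, 2.17 and 3.30 in SW480 mock, and 2.89, 5.69 and 5.71 in SW480 ERβ. SW480 ERβ lay above HT29 ERβ, and the groups overlapped within each line and between the mock lines. WNT7B had 1.96, 0.817 and 1.28 in HT29 mock, 1.58, 0.723 and 0.25 in HT29 ERβ, 1.27, 1.79 and 0.943 in SW480 mock, and 2.87, 3.39 and 2.48 in SW480 ERβ, which lay above the other 3 groups throughout. The WNT1 stretch held 2 more enriched bins in SW480 ERβ, at -22021 bp (mean 3.89 ± 1.01, SD, n = 3) and at -421 bp, the latter being the WNT10B bin.

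Of the Frizzled receptors, 3 of 10 were enriched, all in SW480 ERβ alone. FZD1 was low in 3 groups, with 0.46, 0.675 and 0.666 in HT29 mock, 0.45, 0.413 and 0.11 in HT29 ERβ, and 0.37, 0.36 and 0.41 in SW480 mock. In SW480 ERβ it had 3.07, 4.17 and 2.51, above every other library, with inputs at 0.30 to 0.38. The bin lay at -24932 bp, with no other coding TSS nearer. FZD5 had its bin on its own TSS, and its libraries had 1.56, 0.35 and 0.687 in HT29 mock, 1.18, 0.466 and 0.31 in HT29 ERβ, 2.73, 1.56 and 0.879 in SW480 mock, and 3.62, 3.38 and 2.39 in SW480 ERβ, so that the SW480 groups overlapped. FZD10, at -45563 bp, had 0.588, 0.24 and 0.488 in HT29 mock, 0.75, 0.302 and 0.355 in HT29 ERβ, 1.19, 1.06 and 1.80 in SW480 mock, and 1.52, 2.84 and 2.32 in SW480 ERβ. Both SW480 groups lay above both HT29 groups. Inputs at this bin were 0.317 in HT29 mock, 0.17 in HT29 ERβ, 0.563 in SW480 mock and 0.318 in SW480 ERβ.

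FZD3, FZD4, FZD7 and FZD9 were not enriched in any group and are given for their place in the comparisons. FZD3 was low throughout, with 0.14, 0.224 and 0.23 in HT29 mock, 0.27, 0.25 and 0.33 in HT29 ERβ, 0.882, 0.56 and 0.457 in SW480 mock, and 0.44, 0.816 and 1.06 in SW480 ERβ. FZD4 had 2.14, 1.86 and 0.773 in HT29 mock and 0.581, 0.711 and 1.13 in HT29 ERβ, with overlap, and 1.20 to 1.83 over the 6 SW480 libraries. FZD7 had 1.24, 0.843 and 1.02 in HT29 mock against 0.74, 0.337 and 0.465 in HT29 ERβ, and 0.30 to 1.15 in SW480. For these receptors no library passed 2.27, the highest being HT29 mock replicate 1 of FZD9. The other HT29 mock libraries of FZD9 had 1.27 and 1.28, those of HT29 ERβ 0.886, 0.727 and 1.01, those of SW480 mock 0.544, 1.15 and 0.356, and those of SW480 ERβ 1.17, 1.80 and 0.89.

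LRP6, a co-receptor, had more signal in HT29. Its libraries had 4.94, 2.30 and 2.22 in HT29 mock and 4.55, 1.50 and 1.51 in HT29 ERβ, against 0.397, 0.454 and 0.888 in SW480 mock and 0.548, 1.24 and 0.81 in SW480 ERβ. All HT29 libraries lay above all SW480 libraries. Its highest bin, at -15857 bp, missed the limit over the HT29 mock input (0.718), while the neighbouring bin at -16057 bp was enriched in HT29 mock with 4.72, 2.33 and 0.96 over an input of 0.30. LRP5, the other co-receptor, had 2.06, 0.962 and 1.18 in HT29 mock, 1.39, 0.957 and 1.40 in HT29 ERβ, 1.53, 1.53 and 1.80 in SW480 mock, and 2.25, 2.56 and 2.98 in SW480 ERβ, where all 3 libraries lay above the SW480 mock libraries. LGR6 was the R-spondin receptor with enriched signal, and had 1.94, 0.812 and 1.58 in HT29 mock, 2.59, 1.11 and 1.19 in HT29 ERβ, 2.22, 3.03 and 5.08 in SW480 mock, and 3.07, 6.68 and 7.17 in SW480 ERβ, with overlap within each line. LGR5, the intestinal stem cell marker, was not enriched, with means of 0.781 (HT29 ERβ) to 2.10 (SW480 ERβ).

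**Figure D3:**
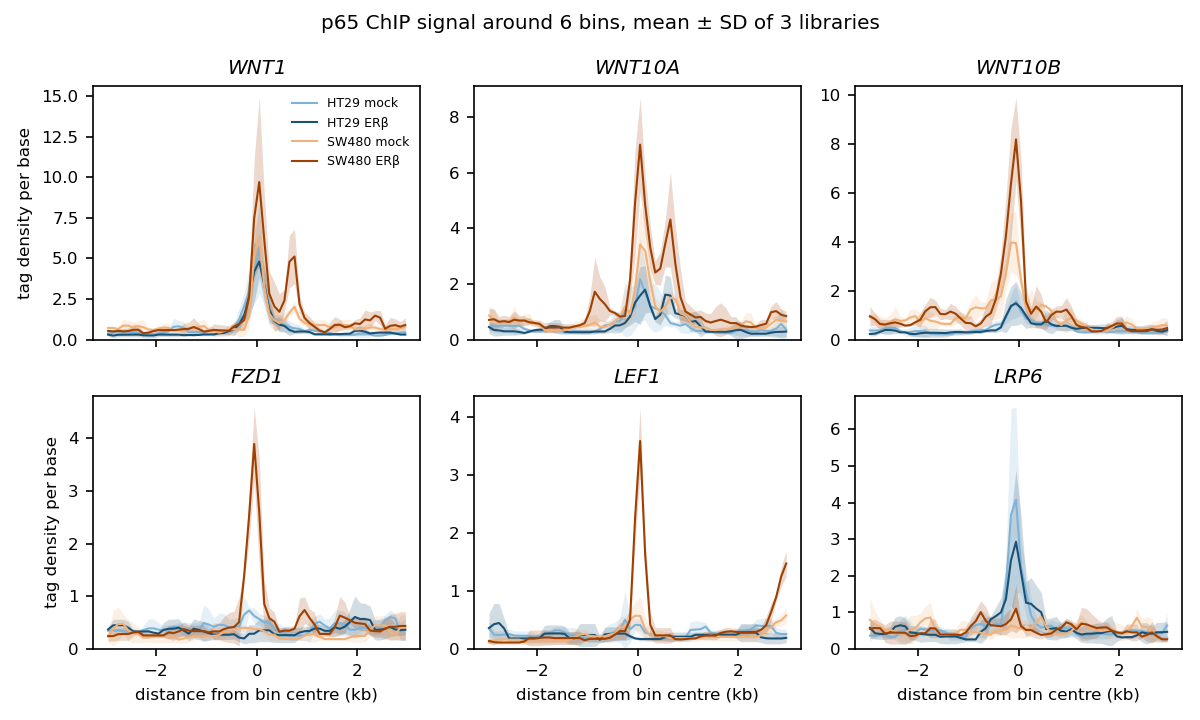
p65 ChIP signal (tag density per base, linear axis from 0, scaled to each panel) from 3 kb upstream to 3 kb downstream of the bin centre in steps of 100 bp, for 6 genes. Upstream (negative) and downstream follow the strand of each gene. Lines are means of 3 libraries and bands are ± 1 SD. FZD1 and LEF1 had a narrow summit at the bin in SW480 ERβ alone, WNT1 in all 4 groups and LRP6 in HT29.

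In the destruction complex AXIN1 and CTNNB1 were enriched. AXIN1, the scaffold of the complex, had 3.61, 0.93 and 1.83 in HT29 mock, 2.19, 1.43 and 1.42 in HT29 ERβ, 0.824, 1.90 and 1.53 in SW480 mock, and 1.85, 3.72 and 3.58 in SW480 ERβ, with overlap of all groups. CTNNB1, which encodes β-catenin, had 0.859, 1.13 and 0.78 in HT29 mock, 0.803, 0.812 and 0.391 in HT29 ERβ, 1.39, 1.21 and 2.51 in SW480 mock, and 1.91, 3.14 and 3.00 in SW480 ERβ, so that both SW480 groups lay above both HT29 groups. Inputs were also higher in SW480 there, at 0.56 (mock) and 0.569 (ERβ) against 0.347 (mock) and 0.408 (ERβ) in HT29. A further CTNNB1 bin, at -8804 bp, was enriched in SW480 ERβ with 2.04, 5.31 and 2.44. APC (means 0.483 to 1.19) and AXIN2 (means 1.02 to 1.99) were not enriched in any group.

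Among the TCF/LEF factors, TCF7, TCF7L2 and LEF1 were enriched in SW480 ERβ. LEF1, a factor that activates targets together with β-catenin, was low outside SW480 ERβ, with 0.52, 0.318 and 0.41 in HT29 mock, 0.20, 0.18 and 0.157 in HT29 ERβ, and 0.67, 0.798 and 0.254 in SW480 mock. In SW480 ERβ it had 2.84, 3.39 and 2.55, above every other library, with an input of 0.16. TCF7 had 0.978, 0.924 and 0.708 in HT29 mock, 1.42, 0.907 and 0.882 in HT29 ERβ, 1.11, 1.65 and 1.35 in SW480 mock, and 2.50, 3.37 and 3.31 in SW480 ERβ, which again lay above all others. A further enriched bin of TCF7 lay at -13980 bp, with 1.89, 3.46 and 3.31 in SW480 ERβ. TCF7L2, the TCF that dominates in colon epithelium, was instead high in HT29, with 5.74, 1.65 and 2.21 in HT29 mock and 4.37, 2.97 and 1.40 in HT29 ERβ, against 0.56, 1.23 and 0.67 in SW480 mock and 1.48, 2.59 and 2.28 in SW480 ERβ. It did not meet the enrichment limits in HT29, where inputs at the bin were 0.95 and 0.81. TCF7L1, often a repressor, had 0.13 to 0.41 in the 6 HT29 libraries, 0.985, 0.731 and 1.54 in SW480 mock, and 1.17, 1.21 and 1.51 in SW480 ERβ.

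Of the 5 feedback and antagonist genes only DKK4 had an enriched highest bin. DKK4, a secreted antagonist of LRP5 and LRP6, had 1.02, 0.26 and 0.20 in HT29 mock, 0.943, 0.41 and 0.305 in HT29 ERβ, 0.698, 0.827 and 1.29 in SW480 mock, and 1.63, 2.38 and 2.29 in SW480 ERβ, at the VDAC3 promoter as said above. NKD1, an inhibitor that acts on Dishevelled, had 0.38, 0.48 and 0.16 in HT29 mock, 0.38, 0.24 and 0.586 in HT29 ERβ, 1.52, 1.29 and 1.53 in SW480 mock, and 2.78, 3.96 and 2.18 in SW480 ERβ. Its input was higher in SW480 too, at 1.04 and 0.878 against 0.14 and 0.39 in HT29. ZNRF3, a ligase that removes Frizzled receptors, had an enriched bin at its promoter (-71 bp) in SW480 ERβ, with 2.73, 2.55 and 2.72 there, though its highest bin lay elsewhere. The 22 measured genes not described by library had means of 0.425 to 1.62 over the 12 tracks, and no single library above 3.50.

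The effect of ERβ in SW480 was tested first, to ask whether p65 binding near Wnt genes differed with ERβ in that line. FZD1 and LEF1 were higher with ERβ and none was lower (limma on log2(signal + 1), adjusted over 20033 genes), where 1.06% of all genes were called higher and 0.00998% lower. FZD1 differed by 1.60 ± 0.18 (log2, SE; adjusted p = 0.0219) and LEF1 by 1.33 ± 0.19 (adjusted p = 0.0382), with 3 libraries per group. These are differences of log2(signal + 1), which understate the ratio at low signal. The bins were picked by the mean of the same 12 tracks that were then compared, and at FZD1 and LEF1 that mean was raised by SW480 ERβ alone, so that the test is not independent of the pick. Signal in all 3 ERβ libraries exceeded that in all 3 mock libraries for 13 of the 47 genes, against 24.6% of all genes, and was below it for none, against 1.9%. The 13 were WNT7B, WNT10A, WNT10B, FZD1, FZD2, LRP5, AXIN2, APC, TCF7, TCF7L2, LEF1, NKD1 and DKK4. The calls of FZD1 and LEF1 rested on few libraries. With 1 library left out, each lost its call in 5 of 6 fits and kept it only without SW480 ERβ replicate 1, with adjusted p-values of 0.0182 to 0.119 for FZD1 and 0.0217 to 0.153 for LEF1. Without that library 10 of the 47 genes were called higher, where 17.8% of all genes were called, and without any other library none was. The differences themselves stayed between 1.45 and 1.73 for FZD1 and between 1.18 and 1.44 for LEF1.

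The other 43 measured genes did not pass the test in SW480. The smallest adjusted p-values among them in the limma fit were those of TCF7 (0.78 ± 0.16, adjusted p = 0.0697), WNT7B (0.75 ± 0.19, adjusted p = 0.0877) and WNT10B (0.92 ± 0.23, adjusted p = 0.0913). WNT10A had a difference of 0.95 ± 0.29 (adjusted p = 0.127). Over the 45 measured genes differences ran from -0.17 to 1.60, with 42 above 0 and 3 below. The median over the 47 genes was 0.24, and the median over all genes 0.21. The mean of log2(signal + 1) over the 47 genes was 1.37 ± 0.14 in SW480 ERβ and 0.99 ± 0.07 in SW480 mock (SD, n = 3). When the library medians were set equal, the number called became 2 higher and 2 lower, where 12.8% of all genes were called (1292 higher and 1266 lower), with FZD1 at 1.38 and LEF1 at 1.11.

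**Figure D4:**
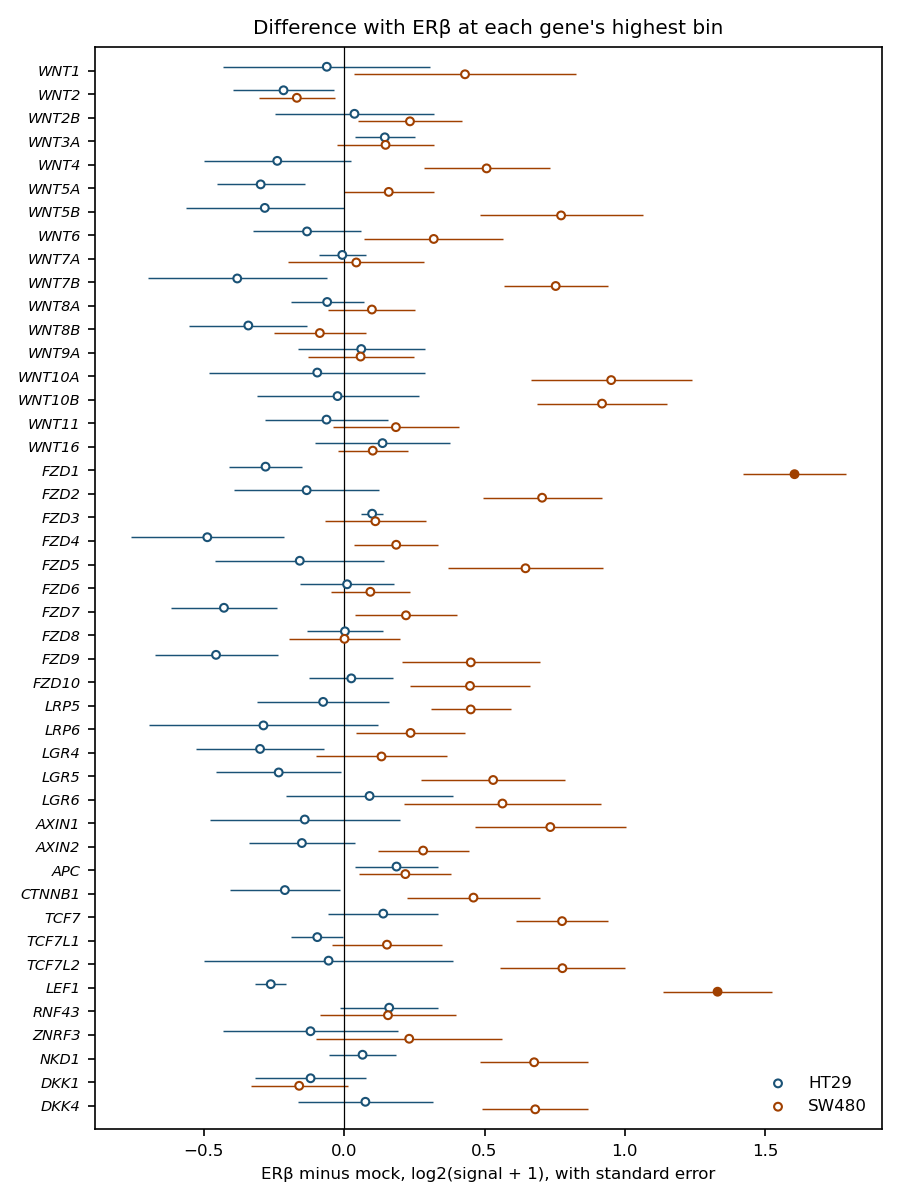
Difference of log2(signal + 1) between ERβ and mock at the highest bin of the 45 measured genes in HT29 and SW480, with the standard error of the limma fit (3 libraries per group). Filled points passed an adjusted p of 0.05, which FZD1 (1.60) and LEF1 (1.33) did in SW480 and none did in HT29.

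In HT29 none of the 47 genes differed with ERβ in the limma fit, and neither did any of the 20033 genes (0%). At an unadjusted p under 0.05 there were 2 of the 47 (LEF1 lower, FZD3 higher) and 563 of all genes. The largest differences were those of FZD4 (-0.49 ± 0.27), FZD9 (-0.46 ± 0.22) and FZD7 (-0.43 ± 0.19). Signal was lower in all 3 ERβ libraries than in all mock libraries for FZD1, FZD7, FZD9 and LEF1 (4 of 47, where 4.29% of all genes were) and higher for FZD3 (1 of 47, where 1.92% were). For FZD1 and LEF1 these were levels of 0.11 to 0.675 and 0.157 to 0.52, near those of the inputs (0.30 to 0.536). The mean of log2(signal + 1) over the 47 genes was 1.17, 0.82 and 0.87 in HT29 mock replicates 1, 2 and 3, and 1.04, 0.72 and 0.78 in the same-numbered ERβ libraries, lower in each pair. Over all genes it was also lower in each pair, with 1.19, 0.88 and 0.91 in mock and 1.09, 0.82 and 0.83 with ERβ. The median difference was -0.10, against -0.07 over all genes. Without replicate 1 of both groups, again no gene of the 47 was called.

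Whether the ERβ effect differed between the lines was tested as an interaction over all 12 libraries. FZD1 (1.89 ± 0.24, adjusted p = 0.0172) and LEF1 (1.59 ± 0.22, adjusted p = 0.0172) passed in the limma fit, both with a higher value in SW480, where 0.549% of all genes did and 0.02% passed with a lower value. The limit on how the bins were picked holds here too. With the replicate number as a block, shared by the same-numbered libraries of both lines, FZD1 kept its call (adjusted p = 0.0432) and LEF1 did not (adjusted p = 0.0544). FZD1 lost its call without HT29 mock replicate 3 (adjusted p = 0.0511) or SW480 mock replicate 2 (0.0504), and LEF1 without HT29 ERβ replicate 2 (0.0536), HT29 ERβ replicate 3 (0.0607) or HT29 mock replicate 3 (0.0511). Of the 45 measured genes 40 had a larger difference in SW480 than in HT29, with a median over the 47 of 0.46 against 0.28 over all genes.

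Comparison of the lines without ERβ asked how the p65 pattern at these genes differed between the HT29 mock and SW480 mock cell populations. FZD3 and NKD1 were higher in SW480 mock and LRP6 was lower than in HT29 mock, where 4.92% and 4.74% of all genes were called higher and lower. LRP6 differed by -1.35 ± 0.28 (adjusted p = 0.0352), NKD1 by 0.87 ± 0.17 (adjusted p = 0.0287) and FZD3 by 0.44 ± 0.10 (adjusted p = 0.0420) in the limma fit. Input over the surrounding 10 kb also differed, being 0.708 (SW480 mock) and 0.268 (HT29 mock) at NKD1, and 0.446 and 0.171 at FZD3. After division by input the log2 differences were 0.03 and 0.15 in turn, and neither gene passed. At LRP6 the input in the bin was 0.718 for HT29 mock cells and 0.28 for SW480 mock cells, while the surrounding input was 0.419 and 0.582, and the difference over input was -0.92 (adjusted p = 0.12). The LRP6 difference was one of a distal bin. Averaged over its promoter, LRP6 signal was higher in SW480 mock by 0.51 (limma, adjusted p = 0.0126). With promoter means 13.1% of all genes were called, most of them higher in SW480 mock, and input was not taken into account.

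The 3 calls also depended on single libraries. LRP6 kept its call only without HT29 mock replicate 1 (adjusted p = 0.0311), as did NKD1 (0.0419), while FZD3 kept it only without SW480 mock replicate 1 (0.0482) or replicate 3 (0.0487). Otherwise adjusted p-values reached 0.0989, 0.0866 and 0.104 in turn. Signal was higher in all SW480 mock libraries for 9 of the 47 genes (19% of all genes) and lower for 7 (15.3%). TCF7L2 was among the latter, with a difference of -1.10 ± 0.36 that did not pass (adjusted p = 0.0973). Over the 47 genes the median difference was 0.01, against 0.02 over all genes. With library medians set equal, 5 were called higher and 7 lower, where 24.2% of all genes were called (1704 higher and 3142 lower).

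With ERβ in both lines, 14 of the 47 genes were higher in SW480 and none was lower, where 15.5% of all genes were called higher and 1.9% lower. By role they were WNT7B, WNT10A and WNT10B among the ligands, FZD1, FZD5 and FZD10, LRP5, LGR6, CTNNB1, the factors TCF7, TCF7L1 and LEF1, and NKD1 and DKK4. The largest differences were those of WNT10B (1.76 ± 0.31, adjusted p = 0.0169), LEF1 (1.73 ± 0.17, adjusted p = 0.00774) and FZD1 (1.67 ± 0.22, adjusted p = 0.0103), all by limma. The other 11 ran from 0.68 (LRP5) to 1.53 (WNT10A), with adjusted p-values of 0.0130 to 0.0487. Input over the surrounding 10 kb was higher in SW480 ERβ than in HT29 ERβ at NKD1 (0.610 and 0.345) and DKK4 (0.355 and 0.182). It was lower at FZD1 (0.369 and 0.416) and LEF1 (0.186 and 0.277). Over input, 16 of the 47 genes were called (24.6% of all genes). TCF7L2 and LRP6, which had more signal in HT29 mock, were not called, and LRP6 differed by -0.82 ± 0.35 (adjusted p = 0.137). This comparison shares its libraries with those above and adds no independent support to them. As in those, the bins were picked by the same tracks, so the test is not independent of the pick. DKK4, FZD1, FZD10, LEF1 and NKD1 reached a mean of 1 only through SW480 ERβ, with a mean under 1 over the 3 other groups.

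The 14 calls varied with the libraries. Without HT29 ERβ replicate 2 none of the 47 was called (0.24% of all genes), without replicate 3 only 1 was (1.57%), and without SW480 ERβ replicate 2 or replicate 3 there were 4 (5.24%) and 5 (5.98%). Without replicate 1 there were 13 in the case of HT29 ERβ (14.5%) and 16 in that of SW480 ERβ (18.6%). LEF1 kept its call in 5 of 6 such fits, FZD1, NKD1 and TCF7L1 in 4, and LRP5 in none. Signal was higher in all SW480 ERβ libraries for 22 of the 47 genes (34.3% of all genes) and lower for 1, LRP6 (4.79%). The median difference was 0.45 over the 47 genes and 0.31 over all genes. With library medians set equal the split was 12 higher and 6 lower, where 25.8% of all genes were called (1862 higher and 3307 lower).

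A list of 61 other Wnt pathway genes (secreted antagonists, Dishevelled and kinase genes, co-factors and target genes) showed where these genes stood in the pathway. Enriched bins were found for 14 of the 61 in SW480 ERβ (18.1% of all genes), 7 in HT29 mock (9.6%), 2 in HT29 ERβ (6.42%) and 1 in SW480 mock (3.51%). With ERβ in SW480, 1 of the 61 was called higher, where 1.06% of all genes were. This was TLE1, a corepressor of TCF factors, with a difference of 1.51 ± 0.17 (limma, adjusted p = 0.0219). TLE1 had 0.261, 0.32 and 0.396 in SW480 mock and 2.56, 3.42 and 2.42 in SW480 ERβ, and it is named because it was the only call, after its values were seen. The interaction called 1 of the 61 higher, where 0.549% of all genes were. This was NOTUM, a Wnt-inactivating enzyme (1.78 ± 0.29, limma, adjusted p = 0.0249), with a bin at -42714 bp. NOTUM had 13.1, 17.7 and 15.2 in SW480 ERβ and 6.34, 5.29 and 4.55 in SW480 mock. It had 1.95, 1.36 and 1.84 in HT29 ERβ and 3.40, 2.32 and 2.27 in HT29 mock. Inputs at the bin were 1.25 and 1.40 in SW480 ERβ and mock, and 0.742 and 0.56 in HT29 ERβ and mock.

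Between the lines without ERβ, 7 of the 61 genes were higher in SW480 and 2 lower (4.92% and 4.74% of all genes). The smallest adjusted p-values among them were those of PORCN (1.62, needed for Wnt secretion), SFRP4 (1.42) and SFRP1 (0.21), both secreted antagonists, and of the corepressor TLE3 (-1.89), all by limma. SFRP1 was low, at 0.32, 0.27 and 0.281 in SW480 mock under an input of 0.542, and at 0.0777, 0.10 and 0.17 in HT29 mock over an input of 0.05, and its surrounding input was 0.363 and 0.0686 in turn. TLE3 had 8.13, 3.62 and 5.05 in HT29 mock and 0.772, 0.39 and 1.02 in SW480 mock. With ERβ, 15 were higher in SW480 and 1 was lower (15.5% and 1.9% of all genes). NOTUM (2.59), SFRP4 (2.25), KREMEN2 (2.04), NKD2 (1.95), SFRP5 (1.71), BCL9L (1.24) and PROX1 (1.23) were among those with the smallest adjusted p-values, from 0.00774 to 0.0153. KREMEN2, a DKK receptor, had 7.24, 8.99 and 10.8 in SW480 ERβ and 1.79, 1.40 and 1.10 in HT29 ERβ.

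The motif content of the bins was not used to choose them. An exact match to the κB consensus on either strand was present in 7 of the 15 enriched bins (46.7%) and in 6 of the 32 others (18.8%), WNT3 and WNT9B included. Over all protein-coding genes these shares were 62.2% of enriched and 19.2% of other bins. The AP-1 word TGANTCA was found in 4 of the 47 bins (WNT5B, WNT7B, WNT9A and LRP6; 8.51% against 7.17% of all genes), each as TGAGTCA, and in WNT7B it occurred at 2 places. The TCF/LEF word CTTTGAT, or ATCAAAG on the other strand, was found in the bins of LRP5, AXIN2, LEF1 and NKD1 (8.51% against 2.37% of all genes). No κB match overlapped an AP-1 or TCF/LEF word in these bins. The FZD1 bin held none of the 3, and LEF1 only the TCF/LEF word. The enriched ligand bins of WNT5B and WNT7B held no κB match either. In the 400 bp around the bin centre WNT7B had 1 κB match. There 9 of the 15 enriched genes had a match (60%, against 72.1% of all enriched genes). Of the 32 others 9 had one (28.1%, against 27.3% of all other genes).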

How the data were processed

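The deposited files were coverage tracks of 12 p65 ChIP-Seq libraries and 4 inputs. Reads were aligned to GRCh38 by the authors with STAR, and HOMER was used to write signal as tag density per base, scaled to 10 M tags with fragments of 100 bp; tool versions were not given in the sources used here. Values under 0.05 were absent. Tag counts and depth could not be recovered from this signal, so no count test, interval or detection floor was possible, and limma replaced the edgeR test that the study ran on tags. The inputs of ERβ cells came from another series according to the methods. Samples were grouped by their titles.

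Mean signal was taken in 200-bp bins, and 1 bin per gene (GENCODE 44, canonical TSS) was picked by the mean of the 12 ChIP tracks, so the values compared also picked the bin. log2(signal + 1) was compared with limma 3.58.1 (lmFit, eBayes with trend) in R 4.3.3, with Benjamini-Hochberg adjustment over 20033 genes and a threshold of 0.05. Each comparison of groups used its own 6 libraries, and the interaction used all 12. The limma script was tested on simulated data. Replicates were described as biological in the methods. Within a line, same-numbered mock and ERβ libraries had correlations of deviations of 0.555, 0.225 and 0.264 in HT29, and 0.288, 0.108 and 0.142 in SW480. Differently numbered ones ran from -0.186 to 0.0659 in SW480. In HT29 they ran from -0.408 to 0.268, the highest being mock replicate 2 with ERβ replicate 3. Replicates 2 and 3 of HT29 could thus not be matched by number. The main fits treated the libraries as unpaired, so their standard errors and p-values leave out the shared deviation of same-numbered libraries. The fit with the replicate number as a block is an alternative. Members were described by library if called, enriched, or among the 3 largest differences of a comparison, and of the 61 other pathway genes the 10 with the smallest adjusted p were named. Members and lists were chosen with earlier results of these data known.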

Additional observations from a re-analysis of the deposited data

Results flagged for a closer look

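FZD1 and LEF1 stood out because the difference between ERβ and mock was itself different in the 2 lines, by the interaction test over 12 libraries. For FZD1 the ERβ difference in SW480 exceeded that in HT29 by 1.89 (log2 of signal + 1), and for LEF1 by 1.59. In both genes the HT29 signal was near that of the inputs with and without ERβ. The bins were picked by the mean of the same 12 libraries, which SW480 ERβ alone raised at these genes, so the test is not independent of the pick.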

How the results depend on the processing

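Of the 47 genes, 2 were called in SW480 ERβ against mock. This became 9 of the 27 with a mean signal of at least 1 (28.7% of all genes that pass this filter). Of the 9, 3 (DKK4, FZD1 and LEF1) had a mean under 1 over the other 3 groups. The number was 4 with library medians set equal (12.8% of all genes). It was 15 over input (29.5%), which here means that log2(input + 1) was subtracted. With promoter means it was 0 (0%), and it ran from 0 to 10 with 1 library left out. Between the mock lines the number called (3) became 5 with 12 libraries in one fit (12.4% of all genes) and 7 of those 27 with a mean signal of at least 1 (27.7%). It was 12 with medians set equal (24.2%), 1 over input (4.39%) and 13 with promoter means (13.1%). With 1 library left out it ran from 0 to 3. LRP6 reversed to 0.51 with promoter means. Between the ERβ lines the number called (14) ran from 0 to 16 without 1 library. For the interaction (2) it became 17 over input (32.8% of all genes), 0 with promoter means and 0 to 2 without 1 library. In HT29 it was 0 under all of these.

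The replicate block left 2 calls in SW480 (1.94% of all genes) and 0 in HT29 (0%), and 1 for the interaction (0.0749%). Across the lines same-numbered libraries did not deviate together, and the block gave 0 calls for mock (0.0499%) and 0 for ERβ (0.15%). Leaving out genes at 0 in all tracks, a choice made after seeing the data, gave 7 calls between the mock lines (18% of the genes left).

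Enriched genes in SW480 ERβ (15) numbered 7 at 6-fold (10.6% of all genes), 9 at a signal minimum of 3 (14.5%), 7 with 3 of 3 libraries (9.71%) and 7 to 13 without 1 library. In HT29 mock (2) there was 1 under each of these settings (4.82%, 7.04% and 6.47% of all genes in turn), and 1 to 2 without 1 library. Starts of any transcript gave 3 in HT29 mock (WNT10B added, 11.3% of all genes), 2 in HT29 ERβ (7.64%) and 2 in SW480 mock (4.29%). Exchanged inputs, also chosen after seeing the data, gave 3 (LRP6 added, 8.79%), 2 (7.03%) and 3 (5.95%) in turn, and 10 in SW480 ERβ (13.8%).

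Over all genes, calls in SW480 (214, of which 212 higher) became 565 with starts of any transcript, 861 in one fit, 915 without genes at 0, 2524 with a mean of at least 1, 2558 with medians set equal (1292 higher, 1266 lower), 5910 over input, 0 with promoter means, 362 at a pseudocount of 0.25, 389 with the block and 2 to 3566 without 1 library. Between the mock lines (1935, 986 higher) they became 3502 without genes at 0, 4846 with medians set equal (1704 higher, 3142 lower), 880 over input (180 higher), 10 with the block and 371 to 1673 without 1 library. The split was 830 higher and 1607 lower with a mean of at least 1, and 2201 and 417 with promoter means. Between the ERβ lines (3495, 3114 higher) they became 5407 in one fit, 30 with the block (16 higher), 5169 with medians set equal (1862 higher, 3307 lower) and 48 to 3722 without 1 library. For the interaction (114) they became 184, 483, 721, 348, 6575, 0, 60 and 15 with starts of any transcript, without genes at 0, with a mean of at least 1, with medians set equal, over input, with promoter means, at a pseudocount of 0.25 and with the block, and 9 to 648 without 1 library. In HT29 (0) they became 2 without replicate 1 of both groups (added after seeing the data), 1 with medians set equal, 24 over input, 1 with promoter means and 0 to 2 without 1 library. The cause of these changes was not tested, and depth could not be recovered from the signal. The paper gives a range of mapped reads over its samples, which was not used here.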
